A study of Mus musculus with 22 samples.

Results

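Microglia from Trem2 knockout (KO) mice, in a set of 3 arrays called KO set B, were compared with microglia from wild-type (WT) mice fed both cuprizone and Covi-Ox, called WT both. The members are arrays chosen by their titles, 6 of the 22 in the series, 3 in each group. The labels of KO set B contradict each other. Its titles give Covi-Ox only, whereas its descriptions, source names and treatment fields give cuprizone together with Covi-Ox. Under the descriptions the comparison is the effect of genotype on mice fed both additives. Under the titles diet differs as well, and the loss of Trem2 and the absence of cuprizone cannot be told apart. Neither reading was chosen, so every difference below is between KO set B and a named WT group.

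Expression was measured on Affymetrix gene arrays from cells sorted out of digested, perfused brain as positive for CD11b, CD45 and F4/80. KO set B mice were Trem2(-/-) and, on either reading, had received Covi-Ox, a mix of tocopherols (vitamin E), at 0.1% of the feed with added alpha tocopherol for 4 weeks. WT both mice carried intact Trem2 and had cuprizone at 0.2% and Covi-Ox at 0.1% of the feed for 4 weeks, after 2 weeks on Covi-Ox alone, and under its descriptions KO set B was fed in the same way. Cuprizone binds copper and, in mice, destroys the oligodendrocytes that make myelin. KO set A, 3 further Trem2(-/-) arrays, carries the opposite conflict (titles give both additives, other fields Covi-Ox alone). The remaining groups were KO cuprizone and WT cuprizone (0.2% cuprizone, 3 arrays each), WT Covi-Ox (0.1% Covi-Ox, 3 arrays), and KO control and WT control on normal chow (2 arrays each). For every group except KO control and WT control, the labels give 4 weeks of treatment after 2 weeks of pre-feeding. Strain, age, sex and the design of the knockout allele are not given in the labels, nor is it said whether each array is a separate animal. The p-values thus reflect the spread between these samples, which may be technical.

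TREM2 is a receptor of microglia and other myeloid cells that binds lipids and lipoproteins and signals through the adaptor TYROBP (DAP12). When myelin breaks down, microglia take up its debris, store and export its cholesterol, and switch on genes known as the disease-associated microglia (DAM) program, whose late stage depends on TREM2 in mice. Resting, or homeostatic, microglia are marked by surface receptors such as P2RY12 and TMEM119, which are turned down as the program comes on.

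The deposited intensities had array medians of 36.1 to 38.6 over the whole series. All 11 measured markers that define microglia lay at or above the 96.4th percentile on each of the 6 arrays, from 663.3 (Ptprc) to 4841 (Cx3cr1). The Y-linked gene Eif2s3y was present on all 6 arrays, at 133, 155 and 173 in KO set B and 245, 150.3 and 230.2 in WT both. Elsewhere in the series 3 arrays, KO cuprizone 2 and 3 and WT cuprizone 3, stood apart in immediate-early genes, which dissociation of tissue induces, with list means of 8.97, 9.0 and 8.68 (log2). The 6 arrays compared here had means of 9.90 to 10.13 in KO set B and 9.97 to 10.01 in WT both. Results that use the cuprizone groups are therefore given with and without the 3 low arrays.

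Trem2 itself had an intensity of 114, 94.3 and 92.7 in KO set B, against 1491, 1424 and 1370 in WT both. The groups do not overlap, and the KO arrays kept a low signal above the array median. The difference was -3.84 ± 0.11 (log2, standard error, n = 3 each), or 14.3-fold lower (limma's adjusted p = 1.18e-14). Tyrobp, the adaptor through which TREM2 signals, had 4356, 4259 and 4450 in KO set B and 4396, 4796 and 4805 in WT both, a difference of -0.10 ± 0.08 that did not pass the test (adjusted p = 0.654). Of 25 tested genes of TREM2 and DAP12 signalling, Trem2 was the one called. The list's median was 0.07, against 0.02 over all genes.

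With an adjusted p under 0.05 as the threshold for a call, 460 of 11830 genes tested (3.89%) were called between KO set B and WT both, 310 lower (2.62%) and 150 higher (1.27%). The falls were larger than the rises. The median of the called genes was -0.88 for those that fell and 0.51 for those that rose, on the log2 scale. At least a 2-fold change was seen in 128 of the genes that fell and 8 of those that rose, and 36 genes were at least 4-fold lower. The 3 arrays of each group did not overlap for any of the 310 genes that fell, nor for 149 of the 150 that rose, as the test favours such genes, against 26% of all genes tested. Among the genes that fell, 65 had a KO set B mean below the median of the array, where intensities come close to background and fold changes are understated, against 2 in WT both. Near the threshold, Plekhh2 (-0.58, adjusted p = 0.0497) lay just inside and Nme7 (-0.52, adjusted p = 0.05) just outside, both chosen after their values were seen. Counts over the gene lists below stand beside these shares of 2.62% lower and 1.27% higher. Of 100 named genes that were called, 74 kept the call whichever of the 6 arrays was left out. Adgre1, Cdh5, Ifi27l2a, Prdx1, Tap1 and Tfrc lost it in all 6 of these fits, and Atox1, Elmo1, Gaa, Galns, Msr1, Slc40a1 and Usp18 in 5. Ms4a4c, Mt1, Pecam1, Slc7a11, Cspg4, Lipa, Zfp952, Cd74, Ice2, Mynn, P2ry12, Zfp212 and Fcgr4 lost it in 1 to 4.

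**Figure D1:**
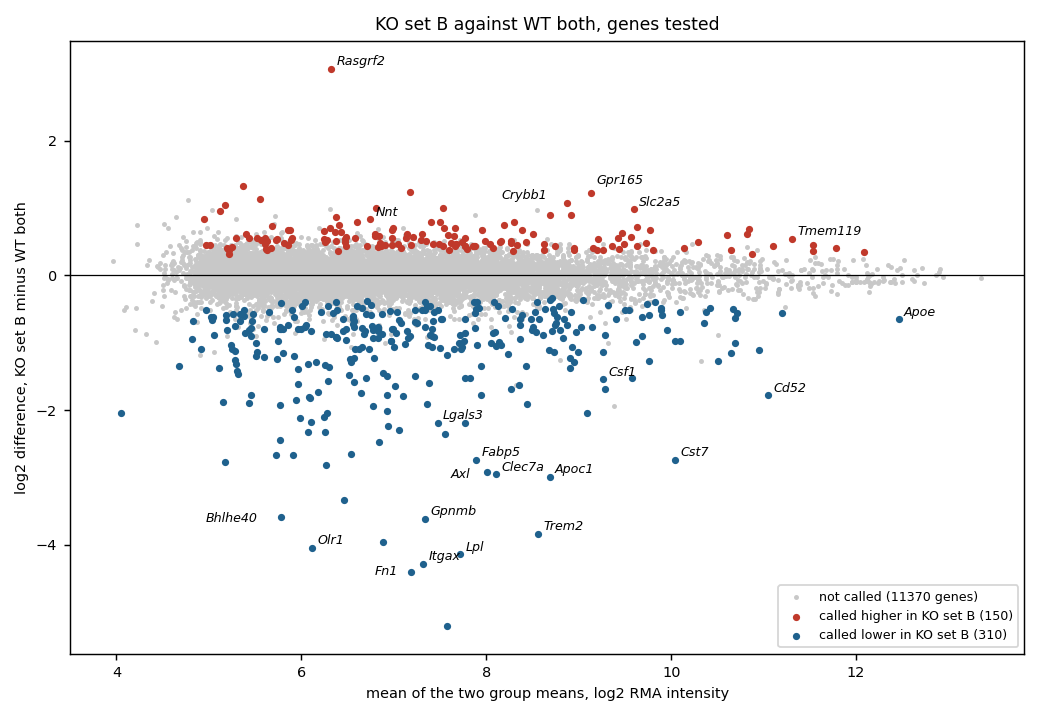
Each point is 1 of 11830 genes, with the mean log2 intensity of KO set B and WT both on the x axis and the log2 difference, KO set B minus WT both, on the y axis. Coloured points passed limma's test at an adjusted p under 0.05, 150 higher and 310 lower, and the points farthest from 0 lie below it, down to -5.20.

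Among the named genes Fn1, Itgax, Lpl, Olr1 and Ch25h had the largest falls. Fn1, which encodes fibronectin, had 35.1, 31.7 and 28.7 in KO set B and 614, 772 and 631 in WT both, 21.1-fold lower (-4.40 ± 0.48, adjusted p = 5.75e-06). Itgax, the integrin chain CD11c, had 35.1, 34.4 and 39.3 in KO set B and 684, 701 and 728 in WT both (-4.28 ± 0.23, adjusted p = 1.06e-10). Lpl, the lipase that releases fatty acids from lipoproteins, had 53.2, 56.8 and 41.4 in KO set B and 895, 974 and 789.8 in WT both (-4.14 ± 0.27, adjusted p = 3.04e-09). In these genes the KO set B arrays lay at 28.7 to 56.8, around the array median, while all WT both arrays lay far above it. Olr1, the receptor LOX-1 for oxidised lipoprotein, had 14.8, 20.0 and 16.7 in KO set B and 276, 267 and 302 in WT both (-4.04 ± 0.18, adjusted p = 4.76e-12). Ch25h, the enzyme that turns cholesterol into an oxysterol, had 35.4, 27.1 and 27.7 in KO set B and 391.5, 519 and 496 in WT both (-3.96 ± 0.49, adjusted p = 3.2e-05). The locus G530011O06Rik on chromosome X, for which no role is given here and which the naming rule leaves out, had the largest fall of all (29.9, 29.9 and 34.7 in KO set B, 1287, 1048 and 1151 in WT both, -5.20 ± 0.17). This locus was as low in the other comparisons of KO with WT. Its difference was -5.46 against WT Covi-Ox, -5.57 for KO cuprizone minus WT cuprizone and -6.2 for KO control minus WT control, each called. It was chosen after its values were seen.

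The late DAM list held many of the falls. Of its 20 tested genes 15 fell and none rose, with a median of -1.98. Beside Itgax and Lpl, Clec7a, the beta-glucan receptor Dectin-1, had 104, 97.4 and 96.4 in KO set B and 719, 816 and 766 in WT both, 7.72-fold lower. Axl, a receptor for phosphatidylserine-bound ligands on dying cells, had 91.6, 89.4 and 100.3 in KO set B and 685, 798 and 647 in WT both, 7.55-fold lower. Both genes showed no overlap between the groups, which the naming rule required of the largest falls. Fabp5, a carrier of fatty acids, was 6.70-fold lower, and Cst7, which encodes the protease inhibitor cystatin F, 6.68-fold lower. Igf1, a growth factor, had 62.8, 62.6 and 55.3 in KO set B and 292, 297 and 291 in WT both, 4.87-fold lower. Lgals3, the galectin of phagocytosing macrophages, had 82.8, 80.7 and 85.9 in KO set B and 364, 390 and 386 in WT both, 4.57-fold lower. The KO set B arrays of all of these genes lay within a narrow range below every WT both array. Csf1, a ligand of the receptor on which microglia depend, was 2.91-fold lower, and the chemokine gene Ccl6 2.42-fold lower. The 5 tested members not called were Gusb, Cd9, Cd63, Ctsl and Cd68, with differences of -0.47 to -0.09. Cd9, a tetraspanin, had 2114, 1997 and 2112 in KO set B and 2459, 2461 and 2612 in WT both (-0.28 ± 0.20, adjusted p = 0.585).

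The early DAM list holds genes switched on before the stage that needs TREM2. Of its 10 tested genes 3 fell, Cstb, Apoe and Ctsz, and the median was -0.28. Cstb, an inhibitor of cathepsins, had 616, 537 and 662 in KO set B and 1118, 1109 and 1146 in WT both (-0.90 ± 0.16, adjusted p = 0.00123). Apoe, the main lipid-carrying apolipoprotein of the brain, had 3995, 4791 and 4748 in KO set B and 6953, 7302 and 6968 in WT both (-0.65 ± 0.13, adjusted p = 0.00447). The groups did not overlap for either gene, as for 26% of all genes tested, and the fall of Apoe was 1.57-fold.

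A group of 11 tested genes around Gpnmb and Mmp12, which earlier analysis of these arrays had singled out as low in the knockout and which is thus no independent evidence of direction, held 10 that fell and a median of -2.82. Gpnmb, a glycoprotein of lipid-laden macrophages, had 49.0, 39.1 and 52.0 in KO set B and 537, 676 and 498 in WT both, 12.2-fold lower. Mmp12, the macrophage elastase, had 25.2, 28.7 and 29.3 in KO set B and 264, 342 and 243 in WT both, 10.1-fold lower. Both sat around the array median in KO set B. Bhlhe40, a transcription factor, was 11.9-fold lower, and Lrmda 7.05-fold lower. Atp6v0d2, a subunit of the proton pump that acidifies lysosomes, was 6.81-fold lower. Flt1, a receptor for VEGF that is best known from endothelium, had 22.9, 22.6 and 25 in KO set B and 109, 158 and 121 in WT both (-2.44 ± 0.26, adjusted p = 4.58e-06). The member not called was Mitf (-0.33, adjusted p = 0.149).

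**Figure D2:**
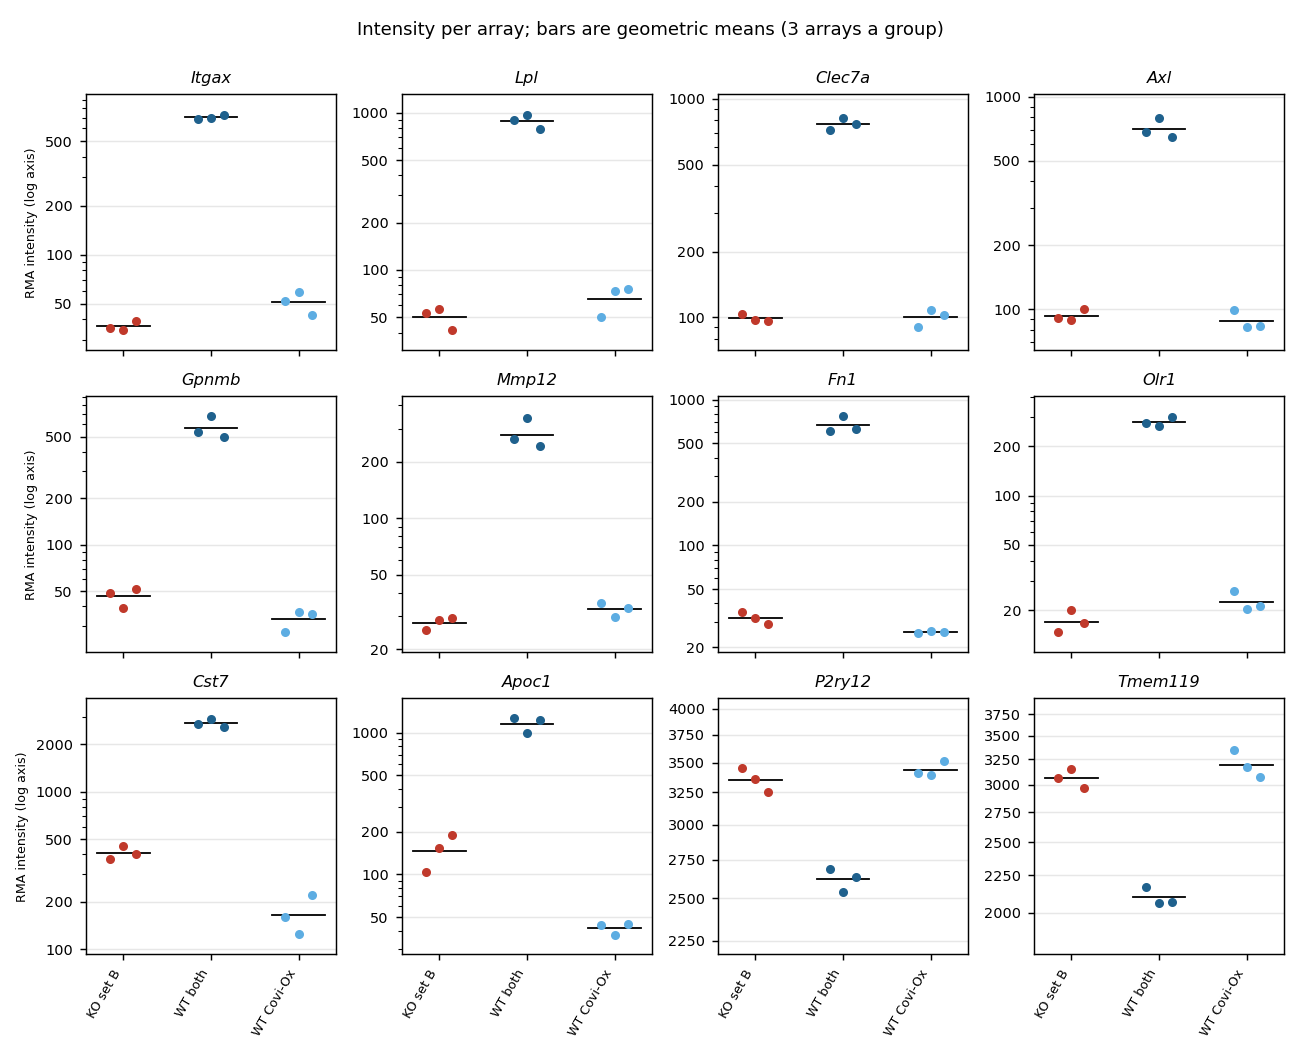
Intensity on a log axis of 12 named genes on each array of KO set B, WT both and WT Covi-Ox, from left to right, with 1 point per array. For the 10 genes that fell, KO set B sits far below WT both and near WT Covi-Ox or, for Cst7 and Apoc1, between the WT groups, while P2ry12 and Tmem119 are higher than in WT both.

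Genes that take up, store and export lipid were among those that fell. Of 16 tested genes of lipid uptake and storage 6 fell and none rose (median -0.48). Plin2, which coats lipid droplets, had 170.5, 206 and 226 in KO set B and 396, 427 and 408 in WT both, 2.05-fold lower. Msr1, a scavenger receptor, had 44.9, 62.2 and 77.8 in KO set B and 158, 127 and 143 in WT both (-1.24 ± 0.33, adjusted p = 0.0375), and lost its call in 5 of the 6 fits without 1 array (adjusted p of up to 0.181), with the replicate block, with no filter and with trend and robust options. Lipa, the lysosomal lipase that frees cholesterol from its esters, was 1.46-fold lower. Of 15 tested genes of cholesterol efflux and LXR targets 5 fell and none rose (median -0.21). Apoc1, an apolipoprotein, had 105, 155 and 190.3 in KO set B and 1275, 998 and 1221 in WT both, 7.95-fold lower. Apoc4, its neighbour in the apolipoprotein cluster, was 2.79-fold lower. Nceh1, a hydrolase of cholesterol esters, had 214, 217 and 220.4 in KO set B and 547.5, 569.6 and 541 in WT both, 2.55-fold lower. None of 18 tested genes of cholesterol synthesis was called by limma (median -0.18, -0.53 to 0.29). Centred on the array medians, 1 of the 18 was called lower.

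Of 37 tested cathepsin and lysosome genes 6 fell (16.2%, against 2.62% of all genes) and none rose, and the median was -0.10. Ctse, an aspartic protease of endosomes, had 42.5, 26.7 and 34.5 in KO set B and 171, 212 and 139 in WT both, 5.04-fold lower. Gla, which cleaves galactose from glycolipids, had 146, 129 and 163 in KO set B and 304, 324 and 302 in WT both, 2.13-fold lower. The other members called were Atp6v0d2, Ctsz, Galns (1.70-fold lower) and Gaa, the acid glucosidase (1.41-fold lower).

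Promoters are shown for the 4 named genes with the largest fall whose window holds CACGTG, the E-box that factors of the Mitf and Bhlhe40 kind are known to bind and that is its own reverse complement. Windows run from 250 bases before to 50 after the start in RefSeq GRCm38.p6. Among the genes with large falls, Fn1, Lpl, Bhlhe40, Apoc1, Atp6v0d2, Fabp5 and Ctse had no window and could not be searched. Each reads 5′ to 3′ on the gene's strand, with the motif in capitals. Lrmda lies at chr14:22019462-22019761 on the plus strand, Nceh1 at chr3:27182754-27183053 on the plus strand, Gla at chrX:134600956-134601255 on the minus strand and Plin2 at chr4:86670010-86670309 on the minus strand.
Lrmda: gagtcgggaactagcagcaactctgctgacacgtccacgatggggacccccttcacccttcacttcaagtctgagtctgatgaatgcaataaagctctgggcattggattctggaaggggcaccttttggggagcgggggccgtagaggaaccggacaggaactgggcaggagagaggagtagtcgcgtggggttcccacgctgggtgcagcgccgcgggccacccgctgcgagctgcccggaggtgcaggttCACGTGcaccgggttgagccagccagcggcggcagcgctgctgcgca
Nceh1: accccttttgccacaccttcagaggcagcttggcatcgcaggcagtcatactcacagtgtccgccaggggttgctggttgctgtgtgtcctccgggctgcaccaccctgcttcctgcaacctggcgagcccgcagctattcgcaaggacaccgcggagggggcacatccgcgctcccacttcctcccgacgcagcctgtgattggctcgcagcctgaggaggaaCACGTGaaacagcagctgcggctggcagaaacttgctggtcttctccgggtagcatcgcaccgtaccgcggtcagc
Gla: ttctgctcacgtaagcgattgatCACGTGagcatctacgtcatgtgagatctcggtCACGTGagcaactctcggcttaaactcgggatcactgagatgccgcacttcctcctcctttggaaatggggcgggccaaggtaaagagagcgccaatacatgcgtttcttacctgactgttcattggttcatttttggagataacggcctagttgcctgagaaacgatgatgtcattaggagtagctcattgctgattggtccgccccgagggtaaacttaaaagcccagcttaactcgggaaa
Plin2: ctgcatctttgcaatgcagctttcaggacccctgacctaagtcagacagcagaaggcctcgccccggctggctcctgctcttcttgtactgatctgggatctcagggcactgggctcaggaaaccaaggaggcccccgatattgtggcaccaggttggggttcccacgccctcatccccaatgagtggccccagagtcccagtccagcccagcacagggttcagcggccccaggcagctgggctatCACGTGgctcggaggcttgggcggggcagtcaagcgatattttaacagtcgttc
The motif begins 26 bases before the start in Nceh1 and 4 before it in Plin2. Gla holds it at 227 and 194 bases before the start, and Lrmda 3 bases after. It was found in 7.28% of 316 windows of the genes that fell and 11.2% of 143 windows of those that rose, against 9.9% of 11974 windows of all genes tested and 7.15% of all 32851 RefSeq windows. The cathepsin and lysosome list had it in 38.2% of 34 windows. A match is a description of letters and shows no binding.

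Homeostatic genes were higher. Of 23 tested members 10 rose, Trem2 alone fell, and the median was 0.29. Crybb1, a crystallin gene of this list, had 670.1, 679 and 687 in KO set B and 337, 320.1 and 308 in WT both, 2.11-fold higher (1.08 ± 0.12, adjusted p = 7.16e-06). Slc2a5, the fructose transporter GLUT5, had 1024, 1178 and 1065 in KO set B and 544, 529.8 and 578 in WT both, 1.98-fold higher. Siglech, a sialic acid receptor of microglia, had 2211, 2241 and 2239.9 in KO set B and 1515, 1381 and 1472 in WT both, 1.53-fold higher. In these 3 genes every KO set B array lay above every WT both array, which the naming rule required of Crybb1 and Slc2a5. Upk1b was 1.73-fold and Ltc4s, the synthase of leukotriene C, 1.64-fold higher. Tmem119 had 3067, 3153 and 2970.3 in KO set B and 2171, 2065 and 2066 in WT both (0.54 ± 0.09, adjusted p = 0.000863). P2ry12, the ADP receptor that steers microglial processes, had 3452, 3361 and 3249.6 in KO set B and 2685, 2541 and 2636 in WT both (0.36 ± 0.08, adjusted p = 0.0123). With 1 array left out P2ry12 missed the threshold in 2 of the 6 fits (adjusted p of up to 0.0679). Cx3cr1, the fractalkine receptor (0.25 ± 0.09, adjusted p = 0.138), and Csf1r (0.15 ± 0.08, adjusted p = 0.351) did not pass the test. Among the genes used for sorting, Adgre1 (F4/80) was 1.30-fold higher and Ptprc (CD45) 1.51-fold lower. Itgam (CD11b), at 1147 to 1643 over the 6 arrays, was not called. Adgre1 missed the threshold with any 1 array left out (adjusted p of up to 0.133), with no filter and with median centring.

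The largest rises outside this list were of mixed kinds. Rasgrf2, an exchange factor for Ras, had 217, 220.0 and 261 in KO set B and 34.1, 23.3 and 26.3 in WT both, 8.42-fold higher (3.07 ± 0.20, adjusted p = 3.17e-09). H2-T24, an MHC class I-like gene on chromosome 17, had 212, 257 and 205 in KO set B and 91.9, 100.1 and 92.0 in WT both, 2.36-fold higher. Gpr165, an orphan receptor, had 846, 858 and 876 in KO set B and 374, 369.6 and 359.7 in WT both, 2.34-fold higher. Rasgrf2 was the gene at least 4-fold higher. Apobec2, of the cytidine deaminase family, was 2.19-fold higher, Ptger3, a receptor of prostaglandin E, 2.05-fold and Bank1, a scaffold of B cell receptor signalling, 2.01-fold. Wdfy1, Stk26, Csmd3, Tspan18 and Zfp952 rose by 1.79-fold to 2.00-fold. Glo1, the enzyme that detoxifies methylglyoxal, had 617.8, 490.5 and 579 in KO set B and 331, 349.9 and 239.8 in WT both, 1.85-fold higher. Nnt, a mitochondrial enzyme that makes NADPH, had 141, 138 and 149 in KO set B and 80.0, 72.6 and 89.2 in WT both, 1.77-fold higher.

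Trem2 lies on chromosome 17. Of 607 tested genes on that chromosome 24 were called (3.95%), close to the 3.89% of all genes. Among the 18 genes called against WT both and also against WT Covi-Ox, Trem2, Olfr111, Olfr99, Enpp5, Tagap, Glo1 and H2-T24 lie on it. Of all 11830 genes tested, 607 lie on this chromosome. Tagap was higher than in WT both (0.56) and lower than in WT Covi-Ox (-0.57). Olfr111, Olfr99, Enpp5 and Tagap were chosen after their values were seen. Of the largest rises, H2-T24, Apobec2, Glo1 and Zfp952 lie on chromosome 17, and the reason was not tested. Of the 50 tested genes nearest to Trem2, 25 on each side, 2 were called (4%), Apobec2 and Satb1, both higher. The related receptor genes Treml1 (0.23, adjusted p = 0.189), Treml2 (-0.54, adjusted p = 0.245) and Treml4 (0.64, adjusted p = 0.0729) did not pass the test.

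Genes of sugar metabolism and hypoxia were lower, with 12 of 20 tested members that fell, none that rose and a median of -0.65. Pgk1, a glycolytic kinase, had 300.5, 309 and 337 in KO set B and 718, 742 and 737.5 in WT both, 2.32-fold lower. Pkm was 1.79-fold and Tpi1 1.75-fold lower, both glycolytic enzymes. Egln3, an oxygen sensor that hypoxia induces, had 29.9, 31.1 and 29.8 in KO set B and 166.5, 165 and 125 in WT both, 4.98-fold lower. Vegfa, the vascular growth factor, was 2.89-fold lower, and Mif, a secreted cytokine, 2.15-fold lower. The hexokinase genes Hk1 (-0.01, adjusted p = 0.981), Hk2 (0.13, adjusted p = 0.655) and Hk3 (0.08, adjusted p = 0.771) did not pass the test. Of 33 tested genes of oxidative phosphorylation Nnt rose and none fell, and the median was -0.15.

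Cytokine and chemokine genes had 9 of 29 tested members that fell and none that rose (median -0.50). Il1rn, the antagonist of interleukin 1, had 54.5, 56.6 and 53.2 in KO set B and 161, 139 and 198 in WT both, 3.00-fold lower. Cxcl14 was 3.42-fold lower and Cxcl16, a chemokine that is also a scavenger receptor, 2.21-fold lower. Il12b had 27.0, 25.6 and 26.5 in KO set B and 48.7, 58.8 and 55.3 in WT both, 2.05-fold lower. Il6, chosen after its value was seen, also fell (-0.97, adjusted p = 0.0321). Tnf (-0.30, adjusted p = 0.836), Il1b (-1.27, adjusted p = 0.494) and Ccl3 (-0.12, adjusted p = 0.892) did not pass the test. Of 27 tested interferon response genes 5 fell and none rose, with a median of -0.43. Ifi27l2a, an interferon-induced gene, had 915, 959.8 and 949 in KO set B and 2264, 2304 and 2224 in WT both, 2.41-fold lower. Slfn5 was 2.42-fold, Usp18 1.86-fold, Slfn2 1.70-fold and Ifih1, a sensor of double-stranded RNA, 1.64-fold lower. With any 1 of the 6 arrays left out Ifi27l2a missed the threshold, at -1.30 to -1.17 over the alternatives (adjusted p of up to 0.0713).

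Among the lists of antigen presentation, complement and Fc receptors 14.3% to 16.7% of the tested members fell, against 2.62% of all genes. In MHC class I 2 of 12 fell, H2-M3 (2.02-fold) and the peptide transporter Tap1 (1.48-fold). In MHC class II and costimulation 2 of 13 fell, the invariant chain Cd74 (1.54-fold) and Cd274, which encodes PD-L1 (1.75-fold). In complement and Fc receptors 2 of 14 fell, Fcgr4 (2.12-fold) and the integrin Itgb2 (1.42-fold). None of the members of these 3 lists rose, although quantile normalization called 1 complement or Fc receptor gene higher. Growth factor genes had 4 of 11 that fell, Igf1, Csf1, Vegfa and Fgf2, with Fgf2 at 27.7, 20.5 and 30.4 in KO set B and 71.1, 59.1 and 40.8 in WT both (2.15-fold lower). In the list of TAM receptors and phagocytosis Axl fell and Elmo1, which helps the engulfing cell reshape its actin, rose 1.33-fold, out of 15.

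Genes of copper handling and of vitamin E were read because the feed additives bear on them. Of 13 metallothionein and copper genes 2 fell (15.4%, against 2.62% of all genes). Mt1 had 1063, 1168 and 1085 in KO set B and 1776, 1449 and 1593 in WT both (-0.54 ± 0.13, adjusted p = 0.0195). Atox1, the copper chaperone, had 989, 843 and 889 in KO set B and 1321, 1352 and 1303 in WT both (-0.55 ± 0.13, adjusted p = 0.0193). Neither gene's groups overlapped, as for 26% of all genes tested. With 1 array left out Mt1 lost its call in 4 of 6 fits and Atox1 in 5. Of 18 genes of lipid peroxidation, vitamin E and iron 4 were called (22.2%, against 3.89% of all genes). Alox5ap (1.52-fold) and the iron exporter Slc40a1 (1.53-fold) rose, whereas Cyp4f18 (2.68-fold) and the transferrin receptor Tfrc (1.66-fold) fell. Gpx4, the peroxidase that protects membrane lipids, did not pass the test (-0.34 ± 0.16, adjusted p = 0.331). In the NRF2 and glutathione list 3 of 20 fell, the cystine carrier Slc7a11 (1.93-fold), Sod2 (1.5-fold) and Prdx1 (1.39-fold). Hmox1, a target of NRF2, had 722, 1040 and 815 in KO set B and 870, 947 and 787 in WT both, and the groups overlapped (-0.03 ± 0.25, adjusted p = 0.978). In the ATF4 and serine synthesis list Phgdh, the first enzyme of serine synthesis, rose 1.68-fold and Slc7a11 fell, out of 19. None of 13 heat shock, 19 cell cycle and 28 immediate-early genes was called.

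**Figure D3:**
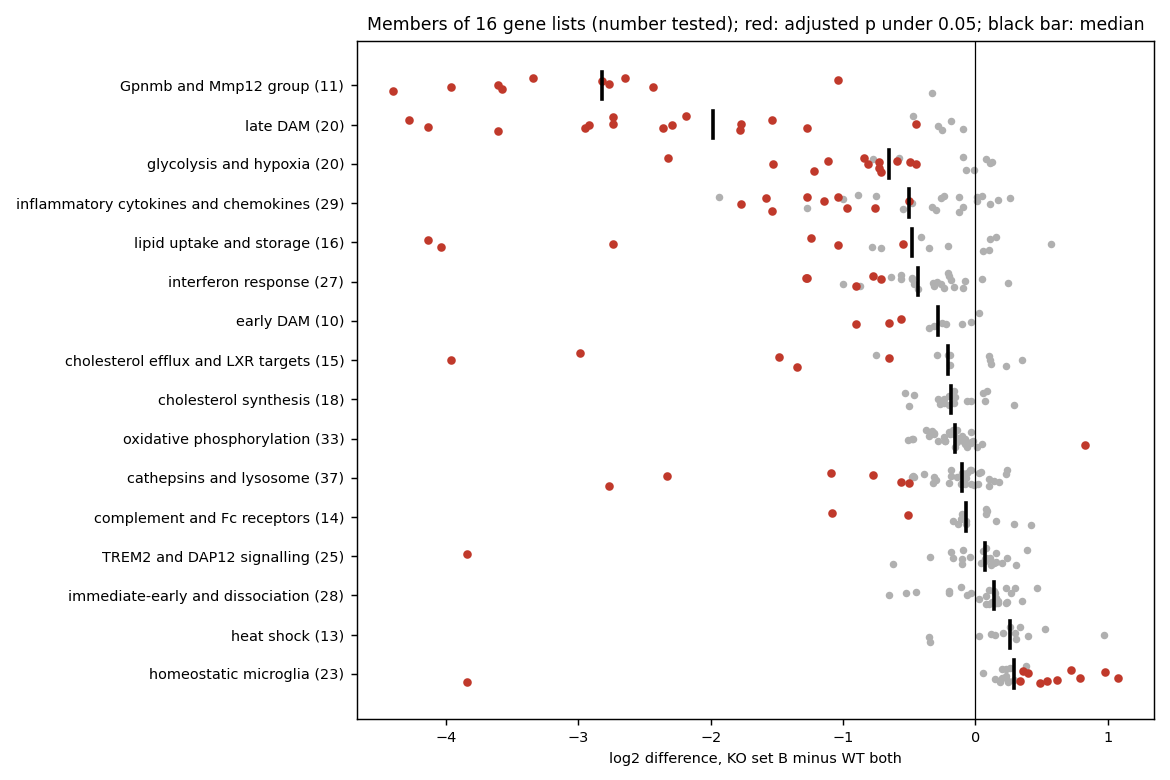
Log2 difference, KO set B minus WT both, on the x axis for each tested member of 16 gene lists, with 1 list per row, coloured points for called genes and a bar at each list's median. The late DAM list (median -1.98) and the Gpnmb and Mmp12 group (-2.82) lie far left of 0, and the homeostatic list (0.29) lies right of it.

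Markers of other cells that the sort could hold were read beside these lists, and their part in the results was not tested. Summed intensity of 13 monocyte markers was 1459 to 2137 in KO set B and 2549 to 2735 in WT both. Without Fn1 the sums overlapped, at 1424 to 2109 in KO set B and 1935 to 1963 in WT both. Fn1 and Ms4a4c were the 2 of 11 tested members that fell, 5 of the 11 lay below 0, and the list's median was 0.16. Ccr2, the chemokine receptor that defines monocytes, stood at 0.24 (adjusted p = 0.618). The 12 endothelial and mural markers summed to 334.5 to 341 in KO set B and 411 to 451 in WT both. Flt1 alone had geometric means of 23.5 in KO set B and 127.5 in WT both. Of 5 tested members Flt1 and Cspg4 fell while the markers Pecam1 (1.66-fold) and Cdh5 (1.36-fold) rose. Cdh5 lay near or below the array median, at 36.3 to 38.5 in KO set B and 25.8 to 29.5 in WT both. Cdh5 missed the threshold with any 1 array left out (adjusted p of up to 0.168), with no filter, with quantile normalization and with median centring, and Pecam1 in 4 of the 6 fits without 1 array (adjusted p of up to 0.2) and with the arrays compared alone. The 9 B cell markers summed to 667 to 668 in KO set B and 533 to 563 in WT both, with Bank1 and Cd79b higher and Cd22 lower among 4 tested. Geometric means in KO set B and WT both were 262.1 and 130.7 for Bank1, 194.9 and 127.3 for Cd79b, and 62.1 and 146.1 for Cd22. The 14 T and NK cell markers summed to 518 to 560.2 in KO set B and 385 to 449.6 in WT both, with Il7r higher among 5 tested. Il7r alone had geometric means of 222.5 in KO set B and 128.7 in WT both. Unlike the monocyte sum, these 3 sums were not repeated without single genes. Of 13 border macrophage markers Siglec1 fell (1.96-fold), and the sums of 1837 to 2613 in KO set B and 1978 to 2331 in WT both overlapped. None of 10 neutrophil and 6 astrocyte markers was called. Of 8 oligodendrocyte and myelin markers Cspg4 fell, and Mbp, a myelin protein gene, had 88.8, 77.5 and 71.3 in KO set B and 82.9, 76.4 and 81.4 in WT both (-0.02 ± 0.13). By comparison the 11 microglia markers summed to 25833 to 26177 in KO set B and 21711 to 21983 in WT both. In bulk samples fewer cells of a type and less RNA per cell cannot be told apart.

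Because the titles place KO set B on Covi-Ox only, it was also set against WT Covi-Ox. The 2 comparisons share the KO set B arrays, so their values are given side by side. Against WT Covi-Ox 29 genes were called (0.245%), 15 higher (0.127%) and 14 lower (0.118%). The 310 genes lower than in WT both had a median of -0.03 against WT Covi-Ox, and the 150 higher genes 0.05. Leaving out any 1 of these 6 arrays brought the calls to between 10 (without KO set B 2) and 14. Fn1 had 25.2, 26.0 and 25.3 in WT Covi-Ox (KO set B minus WT Covi-Ox 0.31, adjusted p = 0.886) and Clec7a 90.6, 108 and 103 (-0.01, adjusted p = 0.987). Crybb1 had 749.5, 621 and 561 in WT Covi-Ox (0.09, adjusted p = 0.875). For these genes KO set B lay near WT Covi-Ox. Cst7 had 372, 450.4 and 406 in KO set B, 2692, 2914 and 2584 in WT both and 161, 125 and 222 in WT Covi-Ox, so that KO set B lay between the WT groups on all arrays. Its difference from WT Covi-Ox did not pass the test (1.31, adjusted p = 0.192). Apoc1 (43.7, 37.5 and 44.9 in WT Covi-Ox, 1.80, adjusted p = 0.217) and Ifi27l2a (426, 268 and 444 in WT Covi-Ox, 1.35, adjusted p = 0.0866) had the same order. Hcar2, a receptor of hydroxybutyrate and niacin, was lower in KO set B than in WT both (-0.87) and higher than in WT Covi-Ox (1.18, adjusted p = 0.0416), with 68.2, 93.6 and 103 in KO set B. F3, tissue factor, showed the same pattern (-0.87 and 0.94, adjusted p = 0.0416 against WT Covi-Ox). Hcar2 and F3 were chosen after their values were seen.

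KO set B was compared with KO set A directly, the other KO arrays of disputed diet. A single gene was called (0.00845%), Cst7, with 372, 450.4 and 406 in KO set B and 77.5, 78.1 and 62.9 in KO set A (2.49, adjusted p = 0.0142), and 1041 genes had an unadjusted p under 0.05. Clec7a (1.06, adjusted p = 0.0658) and Csf1 (1.09, adjusted p = 0.0658) did not pass the test. Cst7 lost its call when any of KO set A 1, 2 or 3 or KO set B 2 or 3 was left out (0 genes called), and without KO set B 1 there were 8 calls.

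The genotype difference on cuprizone alone comes from separate arrays with undisputed labels. KO cuprizone against WT cuprizone gave 450 called genes (3.8%), 97 higher (0.82%) and 353 lower (2.98%). The WT groups of both comparisons had cuprizone, so shared falls cannot tell the 2 readings of the KO set B labels apart. Of the 310 genes lower in KO set B, 304 were also below 0 on cuprizone and 181 were called lower. Their median was -0.67, against -0.01 over all genes. Of the 150 higher genes, 128 were above 0 (median 0.25) and 33 were called higher. In total 214 genes were called in the same direction in both, 46.5% of the 460 and 47.6% of the 450. Without WT cuprizone 3, KO cuprizone 2 or KO cuprizone 3 there were 273, 249 or 207 calls on cuprizone. Rbm38 was the gene called in opposite directions (0.46 for KO set B minus WT both, -0.54 for KO cuprizone minus WT cuprizone) and was chosen after its values were seen. Without the 3 arrays low in immediate-early genes, 1 KO and 2 WT cuprizone arrays remain. There 290 of the 310 were below 0 (median -0.46) and 111 of the 150 above 0 (median 0.15).

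The difference between KO set B and WT both was tested against that between KO cuprizone and WT cuprizone. A single gene, Olr1, differed (0.00845%), and 770 genes had an unadjusted p under 0.05. Olr1 had 20.7, 17.5 and 23.7 in KO cuprizone and 74.6, 39.8 and 43.1 in WT cuprizone, a difference of -1.30, against -4.04 for KO set B minus WT both. The difference of differences was -2.74 ± 0.25 (adjusted p = 1.32e-05). The high values were those of WT both, at 267 to 302, whereas the KO set B and KO cuprizone arrays were at 14.8 to 23.7. Without the 3 low arrays 1 KO cuprizone and 2 WT cuprizone arrays remain, so effect sizes alone are given. Olr1 then differed by -2.65, Fn1 by -2.94, Bhlhe40 by -2.16, Ch25h by -1.90 and Itgax by -1.31. With all arrays Fn1 differed by -1.68 ± 0.68 (adjusted p = 0.73). Leaving out WT cuprizone 3 alone gave 33 genes. WT cuprizone 3 was far above the other WT cuprizone arrays for Fn1, at 1061 against 112 and 145. Without the 3 low arrays Cst7 stood at -0.04, Mmp12 at -0.15, Lpl at -0.87 and Gpnmb at -1.05.

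**Figure D4:**
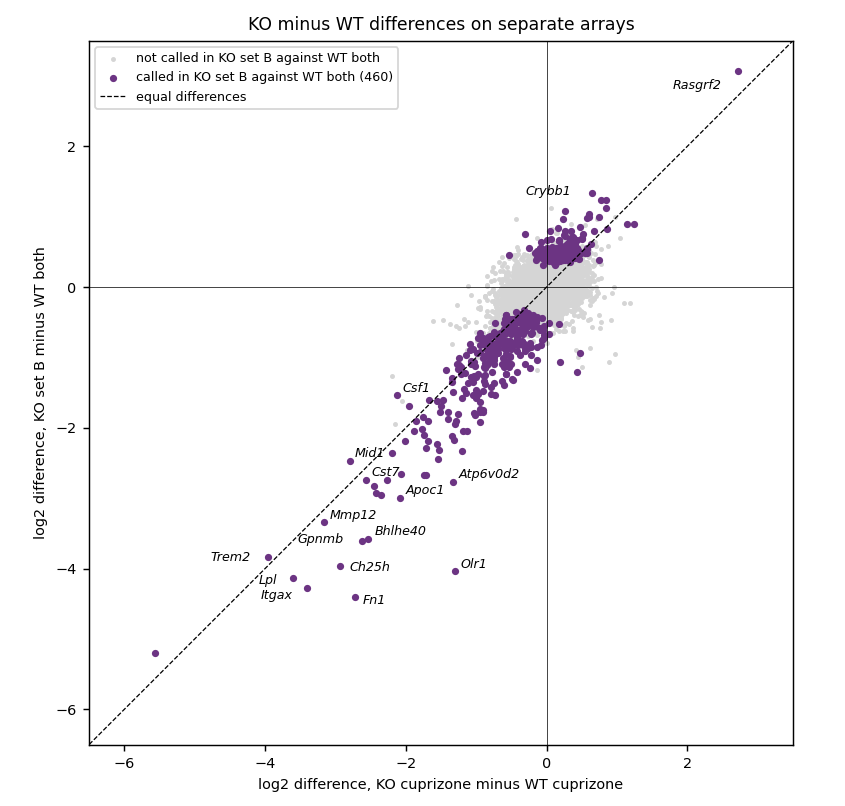
Each point is a gene, with the log2 difference KO cuprizone minus WT cuprizone on the x axis and KO set B minus WT both on the y axis, all 22 arrays in the fit. Called genes of the second difference lie mostly on the same side of 0 in the first, and Olr1 lies far below the line of equal differences, at -1.30 and -4.04.

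On normal chow few genes separated the genotypes. KO control against WT control gave 8 called genes (0.0676%), 2 higher (0.0169%) and 6 lower (0.0507%). The Y-linked gene Eif2s3y was among the lower genes (-1.96, limma's adjusted p = 0.0019). It had 60.1 and 72.4 in KO control and 256.7 and 257.7 in WT control. The chow groups thus differed in a Y-linked gene as well as in genotype, and its bearing on the chow results was not tested. The 310 genes lower in KO set B had a median of -0.19 there, the 150 higher genes 0.06. The difference between KO set B and WT both differed from that between KO control and WT control in 61 genes (0.516%), 50 lower (0.423%) and 11 higher (0.093%). Olr1 (-4.35), Fn1 (-4.01), Ch25h (-3.86), Bhlhe40 (-3.81), Itgax and Gpnmb (both -3.76) differed most. The number of genes rested on single chow arrays, with 409 without KO control 1 (72.1% of them higher, against 18% of the 61), 26 without KO control 2, 25 without WT control 1 and 33 without WT control 2. In Lpl the difference was -1.05 on chow and -4.14 for KO set B minus WT both.

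A few genes separated the genotypes on every diet, among them the locus G530011O06Rik described above. Rasgrf2 was 201 to 289.8 on all 11 KO arrays and 23.3 to 52.5 on all 11 WT arrays. Its difference was 3.07 for KO set B minus WT both, 2.72 on cuprizone and 2.84 on chow, each called. Nnt ran from 138 to 181 on the KO arrays and 65.0 to 95.8 on the WT arrays, with differences of 0.83, 0.86 and 0.91 in the same order, each called. Lrmda was 23 to 43.7 on KO arrays and 92.3 to 329 on WT arrays, with differences of -2.82, -2.45 and -1.89, each called. Mid1, a microtubule-associated ubiquitin ligase on chromosome X, had 45.8, 42.3 and 59.0 in KO set B and 312, 218 and 286 in WT both (-2.47 ± 0.21, with -2.80 on cuprizone and -2.60 on chow). It was chosen after its values were seen. Glo1 (0.89, 1.14 and 0.89) and H2-T24 (1.24, 0.78 and 0.71) were called for KO set B and on cuprizone but not on chow, where each group has 2 arrays (adjusted p = 0.117 and 0.267). Glo1 did not overlap between the genotypes on any array, and for H2-T24 the lowest KO array (143) lay below the highest WT array (161).

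**Figure D5:**
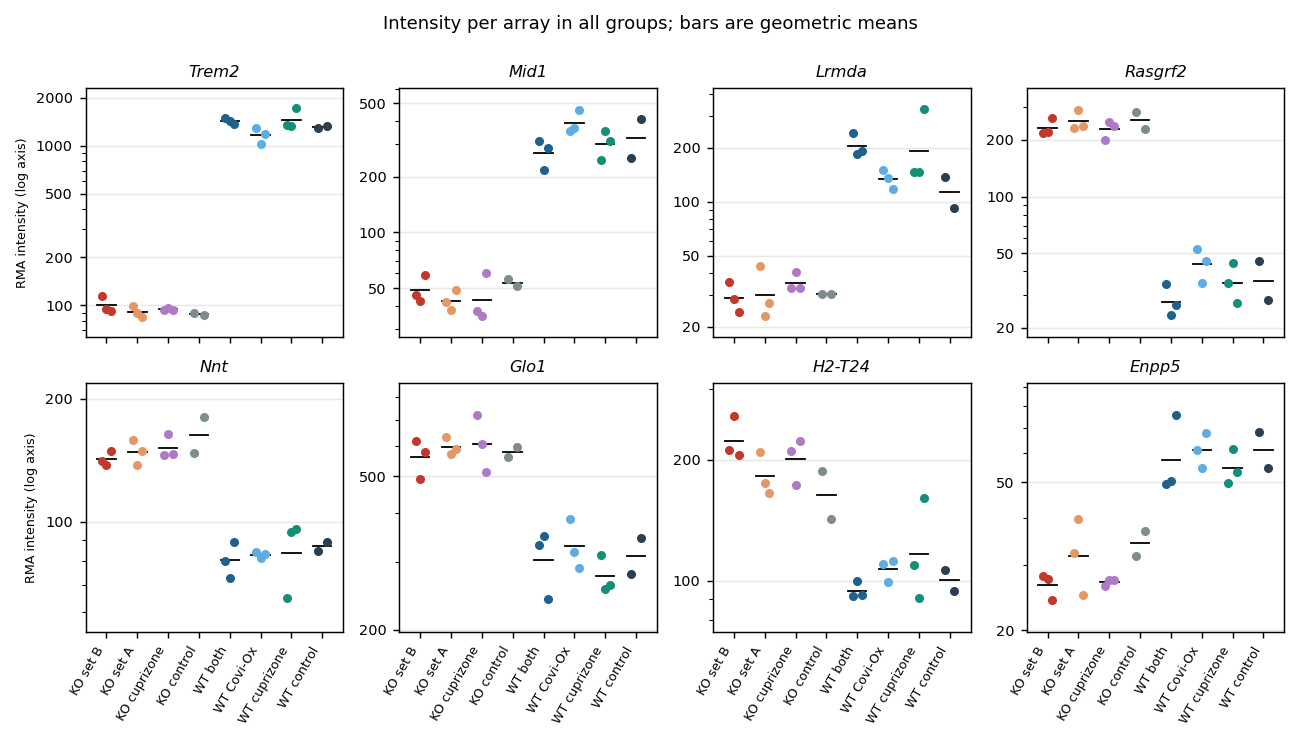
Intensity on a log axis of 8 genes on each array of all 8 groups, KO groups left of WT groups, with 1 point per array. Trem2, Rasgrf2, Nnt, Mid1 and Lrmda keep the KO and WT arrays apart on every diet, Rasgrf2 with at least 201 on KO arrays and at most 52.5 on WT arrays.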

How the data were processed

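The authors deposited 1 intensity per probe set and array, linear in scale and made with RMA per the submitters' processing notes. Which version and settings they used is not stated in those notes. Because RMA equalises the arrays, total RNA per cell cannot be compared. The table held 28098 probe sets (1.62 to 11568), and each value was turned into log2. Probe sets with a single gene in the platform annotation (21640) were used, each gene by the probe set of highest mean. Genes that exceeded the array median (percentile 50) on 2 or more arrays were tested, 11830 of 19937. Nqo1 (log2 2.67 to 3.57) and Mki67 (4.24 to 5.18) fell under this filter. RefSeq held 21553 of the single-gene probe sets, and 9470 of the genes tested had a promoter in its GRCm38.p6 annotation.

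A model of 8 group means over 22 arrays was fitted with limma 3.58.1 (R 4.3.3), which left 14 residual degrees of freedom (prior degrees of freedom 5.49). All p-values were adjusted by the Benjamini-Hochberg method over the genes tested, tests are two-sided, and errors are standard errors. The spread is shared, so arrays outside a comparison bear on it. The number of arrays limits the precision. In data simulated with these groups, 200 of 11830 genes were changed in KO set B alone, with 1 spread per gene for all groups. KO set B against WT both recovered 58.2% of genes with 1.5-fold changes, 97% at 2-fold and 100% at 4-fold. It made 9 false calls among the genes left unchanged.

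Named genes are the called genes with the largest changes whose arrays do not overlap (15 at most in each direction, no clones or unnamed loci), at most 6 called members of each of 38 gene lists, a set always named, and for the differences of differences at most 8 called genes each way, 111 in all. Lists are described by counts and medians beside all genes. The comparison and the lists were chosen with earlier results of these data known. As alternatives the fit was repeated with a replicate block, with the arrays compared alone, with other filters, quantile normalization, median centring, the mean of all probe sets, trend and robust options, array weights, a 2-fold minimum, an adjusted p under 0.01 and each array left out. A fit without the 3 arrays low in immediate-early genes was chosen after seeing the data.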

Additional observations from a re-analysis of the deposited data

Results flagged for a closer look

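The difference between KO set B and WT both was tested against that between KO cuprizone and WT cuprizone, and 1 gene differed, Olr1 by -2.74 (log2). The same test against the difference between KO control and WT control gave 61 genes. Those with the largest negative values were Olr1 (-4.35), Fn1 (-4.01), Ch25h (-3.86), Bhlhe40 (-3.81), Itgax (-3.76), Gpnmb (-3.76), Lpl (-3.10) and Mmp12 (-3.0). In these genes the difference between KO set B and WT both was more negative than that between KO control and WT control, which was above 0 for Olr1 (0.31), Bhlhe40 (0.24) and Gpnmb (0.15).

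Those with the largest positive values were Crybb1 (1.18), Mynn (1.08), Ncaph (0.95), Senp7 (0.94), Maml2 (0.92), Ice2 (0.91), Vrk1 (0.78) and Zfp212 (0.75). The 2 sides of this test differ among them. Crybb1 was at 1.08 for KO set B minus WT both and -0.10 on chow. Senp7, Maml2 and Vrk1 were not called for KO set B minus WT both (0.25, 0.23 and 0.26) and stood at -0.68, -0.69 and -0.52 on chow. The chow groups hold 2 arrays each.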

How the results depend on the processing

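Of 100 named genes called between KO set B and WT both, 90 kept the call with the replicate block, the arrays compared alone, the other filters and scalings, the mean of all probe sets, trend and robust and array weights (84 of the 100 were tested with the filter at the 75th percentile), and 74 also with each array left out. At 2-fold or more 50 were called, and 78 at an adjusted p under 0.01. The number of genes called between KO set B and WT both, 460, became 885 with array weights, 136 at 2-fold or more, 260 at an adjusted p under 0.01 and 311 to 324 with 1 array left out. It was 389 with no filter, 551 with the arrays compared alone and 663 without the 3 low arrays, which are not in this comparison. For KO set B against WT Covi-Ox the 29 became 19 with the replicate block, 64 with the arrays compared alone, 15 with no filter, 18 with median centring (27.8% of them higher, against 51.7%), 174 with array weights, 16 at 2-fold, 12 at an adjusted p under 0.01, 10 to 14 with 1 array left out and 111 without the 3 low arrays. For KO cuprizone against WT cuprizone the 450 (21.6% higher) became 39 with the arrays compared alone, 711 with median centring (7.17% higher), 94 at 2-fold, 147 at an adjusted p under 0.01, 207 to 529 with 1 array left out and 83 without the 3 low arrays, and quantile normalization had 36.5% higher. Against the cuprizone difference the 1 gene became 2 with the filter at the 75th percentile and with centring (50% higher). It became 26 with array weights and 1 to 33 with 1 array left out. Against the control difference the 61 became 33 at an adjusted p under 0.01, 25 to 409 with 1 array left out and 153 without the 3 low arrays. For KO set B against KO set A the 1 gene became 3 with the replicate block, 27 with the arrays compared alone, 13 with the filter at the 75th percentile, 2 with quantile normalization, 10 with trend and robust, 91 with array weights, 0 at an adjusted p under 0.01, 0 to 8 with 1 array left out and 72 without the 3 low arrays. The cause of these shifts was not tested. Hmox1 turned to 0.02 with quantile normalization and ran from -0.17 to 0.09 with 1 array left out (0.04 without WT both 2, 0.00 without KO set B 3), and Mbp from -0.11 to 0.05 (0.00 without WT both 1). Neither was called. Replicate numbers of KO set B and WT both did not pair the samples (correlations of -0.02, 0.03 and 0.00), and the replicate block gave 435 calls. Genes near the array median have intensities close to background, which limits their fold changes. The simulated test against the cuprizone difference recovered 22.4% of 1.5-fold and 85.1% of 2-fold changes. It gave each gene the same spread in all groups. In the data Fn1 had a log2 standard deviation of 1.77 in WT cuprizone and 0.18 in WT both. Recovery under unequal spread was not tested.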
